A study of Homo sapiens with 9 samples.

Results

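The transcriptional response to editing of *FOS* was measured in A549 cells carrying the *LOC388942-ALK* (*LA*) intergenic fusion, by comparing 2 RNA-seq libraries made with guides against *FOS* (sg*FOS*) with 3 libraries made with a scramble guide (sgScr). These 5 libraries are all those labelled sg*FOS* or sgScr among the 9 libraries of the series, and all genes that passed the expression filter were compared, which was 14196 of 26364 gene names in the table. The other 4 libraries, 2 of *LA* cells without a further guide and 2 of control A549 cells, are used here only as a separate comparison set beside this one. A549 is a human lung adenocarcinoma line.

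Every one of the 5 libraries carried sg*LOC388942* and sg*ALK*, the guides that made the fusion, and differed by label only in sg*FOS* or sgScr. The study's methods describe the *LA* cells as grown from single cells. They do not say whether the sg*FOS* and sgScr libraries came from the same clone. The labels do not say which *FOS* guide was used in which library, or whether the replicates were separate cultures or separate edits, so that the p-values measure the spread between these libraries, which may be technical. Any loss of *FOS* function and the cutting by the nuclease at *FOS* fell in the same libraries and cannot be told apart. In bulk RNA, fewer cells in a state and less RNA per cell cannot be told apart either.

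*FOS* encodes a basic leucine zipper protein that pairs with a JUN protein to form the transcription factor AP-1, which binds the letters TGANTCA and is switched on within minutes by growth factor signalling through MAP kinases. FOSB, FOSL1 and FOSL2 are its relatives and compete for the same partners. AP-1 is known for driving proliferation, matrix remodelling and inflammatory genes in carcinoma cells. Growth arrest genes such as *CDKN1A*, which recur below, are switched on by DNA damage and other stress and hold the cell cycle.

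The 2 guides given for *FOS* both match its last exon, exon 4 of 4, on chromosome 14 of GRCh37. Their target sites are shown because their place in the gene sets which part of the protein an edit could reach, with the PAM beside each match in capitals.
sgFOS-1: ttcgtcttcacctaccccgAGG
sgFOS-2: ggtgaccaccggagtgcacAGG
The sgFOS-1 match covers chr14:75748005-75748023 on the plus strand, and its expected cut lies after base 75748020, in codon 346 of 380. The sgFOS-2 match covers chr14:75747953-75747971 on the minus strand, and its expected cut lies after base 75747955, in codon 324. Before these cuts lie 90.8% and 85.0% of the codons, including the run of 5 leucines spaced 7 residues apart, from residue 165 to residue 193, that marks the leucine zipper. Counts per gene do not tell edited from unedited *FOS* RNA.

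**Figure D1:**
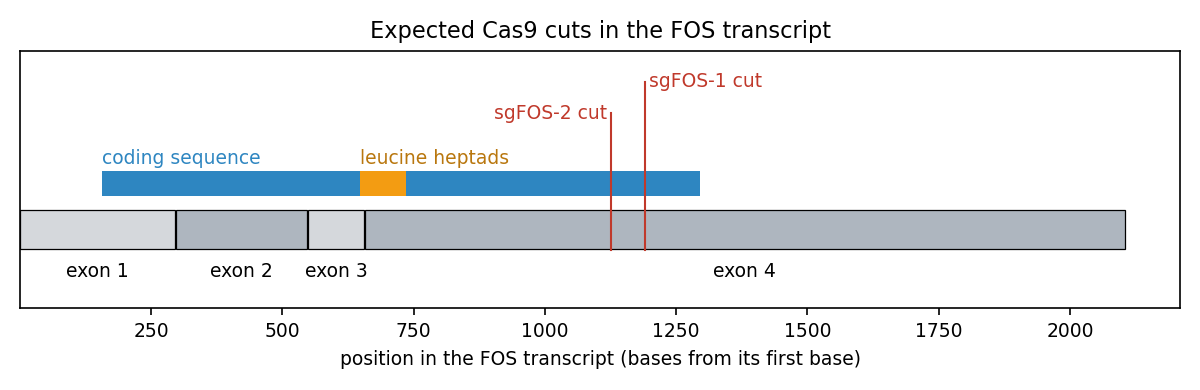
Map of the *FOS* transcript in bases from its first base, with the 4 exons in grey, the coding sequence in blue, the run of leucines spaced 7 residues apart in orange, and the expected cut of each guide as a red line. Both cuts, at transcript positions 1126 and 1191, fall in exon 4 between the leucine run and the end of the coding sequence at position 1295.

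*FOS* itself was at 69.8 and 75.9 CPM (counts per 1000000 reads of the TMM-scaled library) in the sg*FOS* libraries and at 204, 200.1 and 207 CPM in the sgScr libraries. Every sg*FOS* library was below every sgScr library. The log2 fold change was -1.48 (SE 0.044), a 2.79-fold lower level (adjusted p = 2.0e-25, edgeR's quasi-likelihood test, used for all adjusted p-values that follow). *FOS* RNA was thus reduced and not absent in both edited libraries.

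Among all genes tested, 1731 were called higher (12.2%) and 1490 lower (10.5%) in sg*FOS* than in sgScr at an adjusted p under 0.05, which is 22.7% of genes in either direction. Most calls were small. The median absolute log2 fold change of the called genes was 0.26, and 409 genes (2.88%) were called higher and 171 genes (1.2%) lower with a change of over 0.5 on the log2 scale, called larger changes from here on. Without regard to calls, the 2 groups did not overlap in CPM for 48.5% of all genes tested, so that a lack of overlap says little about a single gene in these libraries.

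Total counts were 14507228 and 14606965 in the sg*FOS* libraries and between 17222113 and 20456341 in the sgScr libraries, so that depth moved with the group. With each library thinned to the same depth, 1627 genes were called higher and 1450 lower. Fold changes rose with the GC content of the transcripts (Spearman correlation 0.26 across 13952 genes, which are not independent replicates), and a correction for GC content and length gave 1240 genes higher and 1410 lower. The biological coefficient of variation was 0.0296. When the 4 *LA* and control libraries shared the fit and its wider spread (0.206), edgeR called 0 of 14849 genes, with 444 at an unadjusted p under 0.05. All calls below therefore rest on the narrow spread of these 5 libraries. Several named genes overlap another gene in the annotation, including *OLR1*, *GLIPR1*, *ADGRF4*, *NUF2*, *BRCA1*, *CCND1* and *MX1*, and how reads in an overlap were counted is not given in the sources used here.

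**Figure D2:**
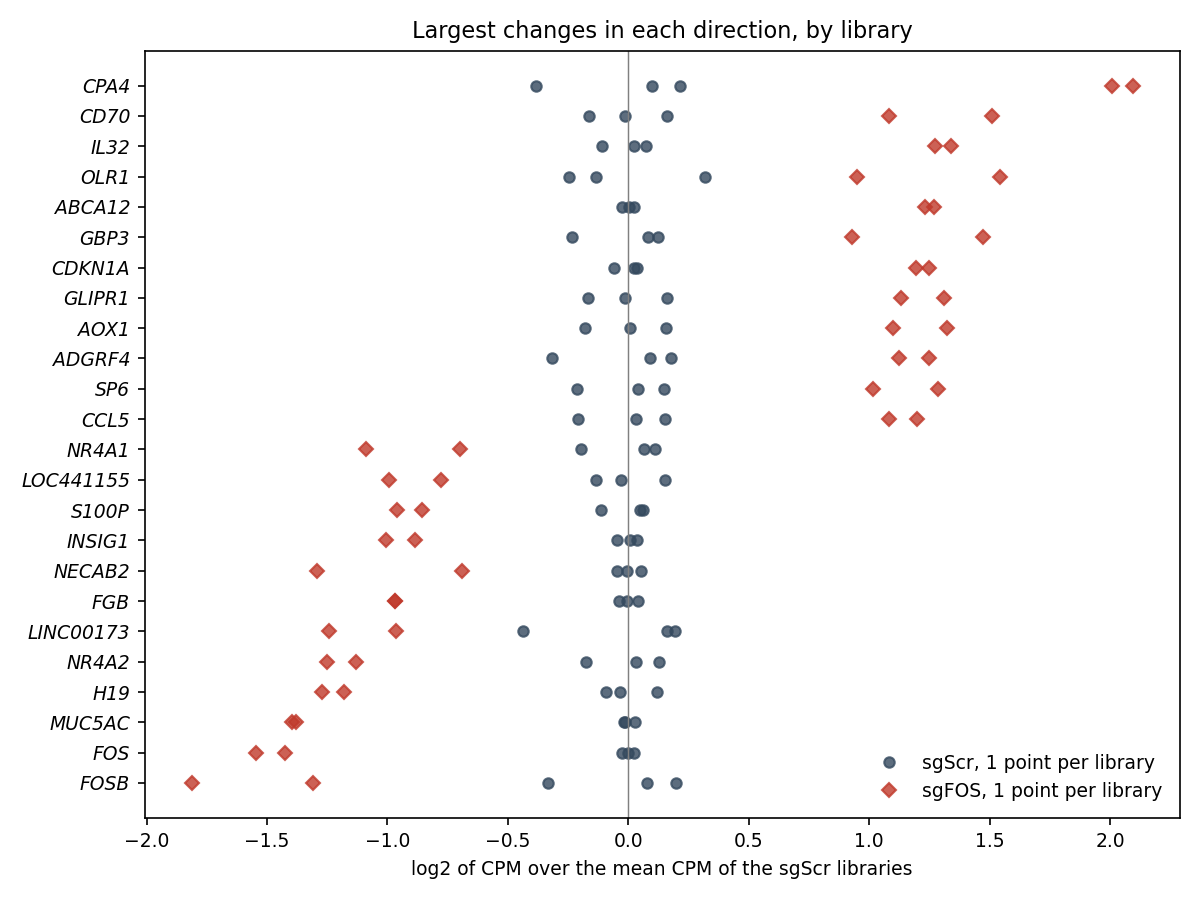
CPM of the 12 genes per direction that changed most, of those called and averaging 50 counts or more, as log2 of each library's CPM over the mean of the sgScr libraries, with sgScr libraries as dark circles and sg*FOS* libraries as red diamonds. For each of the 24 genes both sg*FOS* libraries lie on one side of all 3 sgScr libraries, as the choice of these genes required.

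Of the called genes that averaged 50 counts or more and whose groups lay apart, those with the 12 largest increases were *CPA4*, *CD70*, *IL32*, *OLR1*, *ABCA12*, *GBP3*, *CDKN1A*, *GLIPR1*, *AOX1*, *ADGRF4*, *SP6* and *CCL5*, higher by 1.14 to 2.03 on the log2 scale. *CPA4*, a secreted carboxypeptidase, led with 8.94 and 9.47 CPM in sg*FOS* against 2.38, 2.58 and 1.70 CPM in sgScr, a 4.10-fold higher level (log2 2.03, SE 0.18, adjusted p = 3.1e-11). *CD70*, a ligand of the TNF superfamily, was at 6.79 and 9.13 CPM against 2.86, 3.17 and 3.58 CPM (log2 1.32, SE 0.18). *IL32*, a proinflammatory cytokine, was at 28.8 and 30.1 CPM against 12.1, 11.1 and 12.5 CPM (log2 1.31, SE 0.091). In these 3 genes the lower sg*FOS* library was still well above the highest sgScr library. *OLR1*, the receptor for oxidized LDL, was less even, with 6.37 and 4.23 CPM against 1.84, 2.73 and 1.99 CPM (log2 1.27, SE 0.22). *GBP3*, an interferon-induced GTPase, and *CCL5*, a chemokine for T cells, rose 2.34-fold and 2.20-fold (log2 1.23 and 1.14).

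By the same rule, the 12 largest decreases were led by *FOSB* (log2 -1.54) and *FOS*, followed by *MUC5AC*, *H19*, *NR4A2*, *LINC00173*, *FGB*, *NECAB2*, *INSIG1*, *S100P*, *LOC441155* and *NR4A1*, the last at -0.88. *MUC5AC*, a gel-forming airway mucin, was at 31.6 and 32.0 CPM in sg*FOS* against 84.9, 82.2 and 82.3 CPM in sgScr (log2 -1.39, SE 0.057, adjusted p = 4.1e-21). *FGB*, the fibrinogen beta chain, was at 62.9 CPM in both sg*FOS* libraries and at 123, 119.8 and 126 CPM in sgScr (log2 -0.97, SE 0.046). The spread between replicates was small in both genes. *H19*, an imprinted noncoding RNA, was at 4.16 and 4.43 CPM against 9.80, 9.42 and 10.9 CPM (log2 -1.22, SE 0.15). *INSIG1*, which restrains cholesterol synthesis, fell by 0.94 and *S100P*, a calcium-binding protein, by 0.91. *LOC441155*, which overlaps *EYS*, was no longer called without sg*FOS* replicate 2 (log2 -0.78, adjusted p = 0.078).

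Within the AP-1 family, the 4 FOS relatives split by direction. *FOSB* was at 18.2 and 25.8 CPM in sg*FOS* against 73.5, 67.6 and 50.8 CPM in sgScr (log2 -1.54, SE 0.11, adjusted p = 2.6e-14). *FOSL1* was at 58.3 and 60.8 CPM against 45.7, 44.8 and 41.4 CPM (log2 0.44, SE 0.058, adjusted p = 2.5e-07). *FOSL2* was at 133 and 129.6 CPM against 95.2, 90.4 and 99.4 CPM (log2 0.47, SE 0.043, adjusted p = 5.8e-11). *FOS* and *FOSB* thus fell while *FOSL1* and *FOSL2* rose. None of the 4 overlapped between groups, as was so for 48.5% of all genes tested. *FOSB* lies next to and overlaps *ERCC1* in the annotation, and reads shared between them were not tested for. The JUN genes, which encode the partners, did not pass the test in the reported fit. *JUN* was at 144 CPM in both sg*FOS* libraries and at 144, 144 and 153 CPM in sgScr (log2 -0.03, adjusted p = 0.66), *JUNB* differed by 0.03 (adjusted p = 0.65) and *JUND* by -0.11 (adjusted p = 0.083). *BATF2* (log2 0.82, adjusted p = 0.058), *ATF3* (-0.18, adjusted p = 0.45) and the other 5 members tested also did not pass. Of 14 AP-1 subunits 2 were thus called higher and 2 lower, a share of 28.6% called against 22.7% of all genes. With the length and GC correction, 2 were called higher and 4 lower, and the median went from -0.07 to -0.13.

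The immediate-early genes, which growth factors switch on without new protein synthesis, fell more often than they rose. Apart from the AP-1 subunits, 16 of 33 tested were called lower (48.5%, against 10.5% of all genes) and 5 higher. The median log2 fold change was -0.11 (all genes tested, -0.0015). *NR4A1* and *NR4A2*, orphan nuclear receptors, fell by 0.88 and 1.19, and *ZFP36*, which destabilizes cytokine mRNAs, by 0.61. *EGR1*, a zinc finger transcription factor, was at 181 and 190.5 CPM in sg*FOS* against 252, 261 and 239.7 CPM in sgScr (log2 -0.43, SE 0.040). The members that rose were *GADD45A* (0.70), *BTG2* (0.69), *IER5* (0.41), *SRF* (0.39) and *CTGF* (0.28). *GADD45A* and *BTG2* are also known as growth arrest genes induced by DNA damage. Of 18 MAP kinase feedback inhibitors, 4 were called lower, with a median of -0.03. This share called, 22.2%, was near the 22.7% of all genes. The phosphatase gene *DUSP5* fell most among them, at 69.9 and 72.0 CPM against 104, 97.8 and 98.8 CPM (log2 -0.50, SE 0.047).

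Genes that textbooks list as AP-1 targets did not fall as a group. Of 22 tested, 15 were called higher (68.2%, against 12.2% of all genes) and 1 lower, with a median log2 fold change of 0.34. *MMP7*, a secreted metalloproteinase, was at 80.2 and 79.5 CPM in sg*FOS* against 45.8, 40.1 and 43.0 CPM in sgScr (log2 0.89, SE 0.055, adjusted p = 1.8e-15). *PLAU*, the protease urokinase, was at 120.3 and 123 CPM against 87.5, 92.5 and 89.8 CPM (log2 0.44, SE 0.042). The groups did not overlap in either gene. *TNC*, a matrix glycoprotein at under 5 CPM, rose by 0.98. *SPP1*, encoding osteopontin, was the member called lower, at 113 and 105 CPM against 128, 130.3 and 135 CPM (log2 -0.27, SE 0.043), and was not called with a replicate block and GC correction together (adjusted p = 0.055).

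The letters TGANTCA were counted on both strands of RefSeq promoters (GRCh38.p14, 250 bases before to 50 bases after the start) for the 11056 tested genes that had one. They were present in 4.63% of all promoters, in 7.15% of those of genes called higher and in 3.01% of those of genes called lower. Among larger changes the shares were 11.4% of 297 promoters of genes that rose and 6.45% of 124 promoters of genes that fell. The related letters TGACGTCA, bound by CREB and ATF factors and which do not contain TGANTCA, were in 3.25% of all promoters, in 3.03% of those of genes called higher and in 3.26% of those of genes called lower. These shares are a description of these windows and say nothing about binding. Stretches around the matches before the start of the strongly raised genes *CPA4*, *GBP3* and *ADGRF4* are given to show the letters in place, with the match in capitals, at chr7:130293083-130293149 and chr7:130293116-130293160 (plus strand), chr1:89022867-89022919 (minus strand), and chr6:47698427-47698493 and chr6:47698507-47698573 (plus strand) of GRCh38. Among *FOS*, *FOSB* and the other genes with the largest changes, 15 had a promoter in the table, and these 3 genes were those with TGANTCA in the 250 bases before the start.
CPA4, first match: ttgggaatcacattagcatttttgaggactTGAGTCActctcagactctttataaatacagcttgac
CPA4, second match: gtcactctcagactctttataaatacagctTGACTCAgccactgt
GBP3: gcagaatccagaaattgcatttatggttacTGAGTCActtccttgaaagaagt
ADGRF4, first match: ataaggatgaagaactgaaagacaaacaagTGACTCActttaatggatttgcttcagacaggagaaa
ADGRF4, second match: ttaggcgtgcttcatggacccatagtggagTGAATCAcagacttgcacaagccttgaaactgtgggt
The match in *GBP3* begins 23 bases before the start, the matches in *CPA4* 48 and 15 bases before it, and those in *ADGRF4* 123 and 43 bases before it. In *FOS* and *FOSB* themselves there was neither set of letters in the 250 bases before their starts.

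Among the gene lists with at least 10 members tested, the genes of growth arrest and the DNA damage response had the highest median change. Of 30 members tested, 28 were called higher (93.3%, against 12.2% of all genes) and 1 lower, and the median log2 fold change was 0.50. The members and lists were chosen with earlier results of these data known, so that this rank and these counts are not independent evidence. *CDKN1A*, which encodes the cyclin-dependent kinase inhibitor p21, was at 281 and 271 CPM in sg*FOS* against 120.1, 113 and 121 CPM in sgScr, a 2.34-fold higher level (log2 1.22, SE 0.038, adjusted p = 6.5e-25). *SPATA18*, involved in removal of damaged mitochondria, was at 12.5 and 11.2 CPM against 4.85, 6.25 and 6.10 CPM (log2 1.05, SE 0.14). *FAS*, a death receptor, was at 26.0 and 24.2 CPM against 13.4, 13.3 and 14.4 CPM (log2 0.88, SE 0.091). Both sg*FOS* libraries exceeded all sgScr libraries in these genes, and the groups did not overlap in any of the 30 members. Across all genes tested, the groups did not overlap in 48.5%. *PHLDA3*, an inhibitor of AKT, rose by 0.85, and *MDM2*, which encodes a ubiquitin ligase, was at 169.8 and 167 CPM against 111, 114 and 103 CPM (log2 0.62, SE 0.042, adjusted p = 1.4e-14). *BAX*, a pore-forming apoptosis gene, rose by 0.46.

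*PLK3*, a stress-responsive kinase gene, did not pass (log2 0.34, adjusted p = 0.052). The number of these genes called higher was 27 with the length and GC correction, 25 with DESeq2, and between 25 and 28 with each library left out in turn. In *LA* against control cells, whose 4 libraries are not shared with this comparison, 3 of these genes were called higher and 4 lower, with a median of -0.04.

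**Figure D3:**
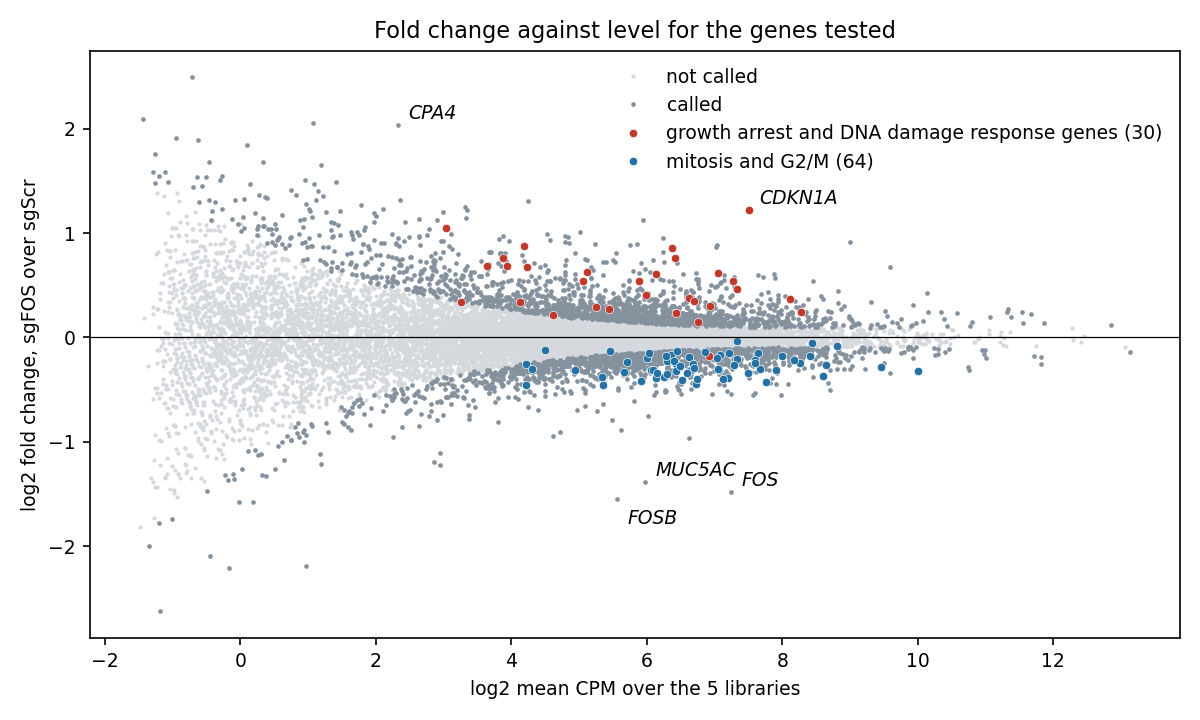
Log2 fold change of sg*FOS* over sgScr against the log2 of the mean CPM over the 5 libraries, 1 point per gene tested, with called genes in dark grey, the 30 growth arrest and DNA damage response genes in red and the 64 mitosis genes in blue. The growth arrest genes, of which 28 were called higher, lie above 0 with 1 exception, and the mitosis genes lie below 0, between -0.46 and -0.04.

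Genes of cell division were mostly lower, by small amounts. Of 64 genes of mitosis and G2/M, 57 were called lower (89.1%, against 10.5% of all genes). All 64 had a log2 fold change below 0, with a median of -0.27. *KIF14*, a kinesin of cytokinesis, was at 87.1 and 87.0 CPM in sg*FOS* against 119, 123 and 114 CPM in sgScr (log2 -0.45, SE 0.044). *TOP2A*, the topoisomerase that untangles sister chromosomes, was at 902 and 887 CPM against 1103, 1132 and 1122 CPM (log2 -0.32, SE 0.033), and the proliferation marker *MKI67* at 617 and 631 CPM against 736, 793 and 750.4 CPM (log2 -0.28, SE 0.035). The groups did not overlap in 62 of the 64 genes, against 48.5% of all genes tested. *NUF2*, *CDC25C* and *ASPM* fell by 0.46, 0.45 and 0.43, while *CDC20*, an activator of the anaphase-promoting complex, differed by -0.04 (adjusted p = 0.58).

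Among 61 genes of DNA replication and S phase, the decreases were led by *E2F2* (log2 -0.42), the kinase gene *CDC7* (-0.41) and *DNA2* (-0.34). Of the 61, 30 were called lower (49.2%, against 10.5% of all genes), with a median of -0.14. Without sg*FOS* replicate 2 the number was 16. The clamp gene *PCNA* was at 176 and 173 CPM against 198, 202 and 200.4 CPM (log2 -0.20, SE 0.037), and the highest member, *RPA2*, differed by 0.11 (adjusted p = 0.23). Of 36 genes of homologous recombination and fork repair, 23 were called lower (63.9%), with a median of -0.22. They included *TOPBP1* at 83.9 and 87.9 CPM against 118, 120.1 and 115 CPM (log2 -0.46, SE 0.044), the helicase gene *BLM* (-0.40) and *BRCA1* (-0.26). In a test against a minimum change of 0.2 on the log2 scale, the numbers lower were 24 for mitosis, 2 for replication and 4 for repair. The study drew gene sets of cell cycle and replication from these same libraries, so that these counts are not independent evidence of their direction.

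Among G1 regulators the changes went both ways. *CCND1*, encoding cyclin D1, was at 527 and 545 CPM in sg*FOS* against between 391 and 399.7 CPM in sgScr (log2 0.44, SE 0.034), and *CCNE1*, encoding cyclin E1, at 42.1 and 41.4 CPM against 32.2, 31.3 and 31.6 CPM (log2 0.40, SE 0.065). The inhibitor genes *CDKN2C* and *CDKN1B* fell by 0.45 and 0.33, in contrast to *CDKN1A*. In all, 4 of 19 members were called higher and 5 lower, a share of 47.4% called against 22.7% of all genes.

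More inflammatory genes were called higher than lower, where 12.2% of all genes tested were called higher and 10.5% lower. Of 37 genes that respond to TNF and NF-kappa B, 20 were called higher and 1 lower, with a median of 0.40, and of 27 TNF superfamily ligands and receptors 15 were called higher, with a median of 0.37. The study drew a TNF set from these libraries, so that this count is not independent evidence either. *TNFRSF9*, a costimulatory receptor, was at 4.78 and 3.95 CPM in sg*FOS* against 1.94, 1.44 and 1.23 CPM in sgScr (log2 1.49, SE 0.24). The neutrophil chemokine *CXCL1* was at 64.3 and 61.0 CPM against 36.1, 34.0 and 37.5 CPM (log2 0.81, SE 0.059), and *CXCL8* was at 63.1 and 69.5 CPM against 50.8, 43.7 and 40.5 CPM (log2 0.55, SE 0.066). The groups stayed apart in all 3 genes. *CXCL6* rose by 1.21 and *IL11*, a cytokine of the IL-6 family, by 1.10. Of 18 NF-kappa B subunits and inhibitors 9 were called higher, among them *RELB* (0.47), *NFKB2* (0.36) and the feedback inhibitor *TNFAIP3* (0.63), while *NFKBIZ* fell by 0.38. The count of 9 fell to 6 with DESeq2, with the length and GC correction or without sgScr replicate 2. It was 5 in a test against a minimum change of 0.2 on the log2 scale.

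Of 39 interferon-stimulated genes tested, 19 were called higher (48.7%, against 12.2% of all genes) and 2 lower, with a median of 0.33. These genes were expressed at low levels. *OASL* was at 0.762 and 1.64 CPM in sg*FOS* against 0.145, 0.198 and 0.293 CPM in sgScr (log2 2.49, SE 0.51), *GBP1* at 2.49 and 1.29 CPM against 0.533, 0.347 and 0.704 CPM (log2 1.85, SE 0.39), and *TRIM22* at 2.77 and 2.59 CPM against 0.873, 1.04 and 1.11 CPM (log2 1.41, SE 0.29). Neither *OASL* without sg*FOS* replicate 2 (adjusted p = 0.11) nor *GBP1* without sg*FOS* replicate 1 (adjusted p = 0.12) was called. The GTPase gene *MX1* rose by 1.16 and *SAMD9L* by 1.36. The count of 19 fell to 11 with DESeq2, with a minimum mean of 50 counts, or with either sg*FOS* library left out.

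Of 20 genes of MHC class I and peptide loading, 11 were called higher (55.0%, against 12.2% of all genes), with a median of 0.24. The heavy chain gene *HLA-B* was at 9.28 and 9.81 CPM in sg*FOS* against 5.96, 5.70 and 5.45 CPM in sgScr (log2 0.74, SE 0.14), and *HLA-C* rose by 0.34. HLA genes are near-identical copies of each other, and how reads shared between them were counted is not given in the sources used here. *B2M*, the invariant light chain with no such copy, was at 231 and 227 CPM against 197, 195 and 197 CPM (log2 0.22, SE 0.036), and the immunoproteasome gene *PSMB8* rose by 0.54.

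More matrix genes were called higher than lower, where 12.2% of all genes tested were called higher and 10.5% lower. Of 21 collagen genes tested 12 were called higher, with a median of 0.30, and of 28 matricellular and fibrillar matrix genes 13 were called higher and 3 lower, with a median of 0.27. *COL5A1*, a fibrillar collagen, was at 89.0 and 92.6 CPM in sg*FOS* against 39.7, 43.8 and 41.5 CPM in sgScr (log2 1.12, SE 0.053, adjusted p = 4.4e-19). *COL6A1*, of microfibrils, was at 38.7 and 38.6 CPM against 19.7, 20.1 and 22.0 CPM (log2 0.91, SE 0.074), and *FBN1*, encoding fibrillin, at 40.6 and 39.5 CPM against 19.8, 21.1 and 23.3 CPM (log2 0.91, SE 0.075). In these 3 genes both sg*FOS* libraries lay far above the highest sgScr library relative to the spread within each group. *COL17A1*, of hemidesmosomes, rose by 1.21, and the basement membrane gene *COL4A1*, which overlaps *COL4A2*, by 0.74. Of 18 genes in the list of protease inhibitors and the urokinase receptor *PLAUR* 11 were called higher, *PLAUR* among them, and of 29 genes of TGF-beta signalling 15 were called higher and 5 lower, among them *TGFBI* (0.67) and *PMEPA1* (0.89). Of 22 integrins 7 were called higher and 2 lower, with *ITGB4*, the beta chain of the hemidesmosome integrin, at 254 and 272 CPM against 176, 171 and 181 CPM (log2 0.58, SE 0.038). *ITGA11* rose by 1.03 but was not called without sg*FOS* replicate 2 (adjusted p = 0.13). The study also picked matrix and integrin gene sets on these libraries, so that these counts are not independent evidence of a direction.

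The remaining lists of secreted and structural genes differed in how many members were called, beside 12.2% of all genes called higher and 10.5% lower. Of 24 matrix proteases 10 were called higher and 2 lower, of 15 laminins and basement membrane genes 5 were called higher, and of 16 crosslinking enzymes 8 were called higher and 2 lower. *LAMB3*, a laminin chain of hemidesmosomes, was at 71.8 and 69.6 CPM in sg*FOS* against 45.1, 46.7 and 44.6 CPM in sgScr (log2 0.64, SE 0.053). Of 13 keratins 6 were called higher and 2 lower, with *KRT19*, a keratin of simple epithelia, at 178 and 176 CPM against 95.1, 93.9 and 103 CPM (log2 0.86, SE 0.042). Of 28 genes of epithelial-mesenchymal transition and cell junctions 5 were called (17.9%, under the 22.7% of all genes), 4 of them higher (2 without sg*FOS* replicate 1), and the tight junction gene *CLDN4* led with 0.92. Of 13 chemokines 6 were called higher, and of 19 interleukins and colony-stimulating factors 7 were called higher and 2 lower. Of 30 genes of YAP and TEAD signalling 10 were called higher and 4 lower, with 6 higher when either sg*FOS* library was left out and 1 lower without sg*FOS* replicate 1, and of 16 genes of the IGF axis 4 higher and 3 lower, among them *IGFBP7*, which binds insulin-like growth factors, at 21.2 and 20.5 CPM against 11.3, 8.63 and 12.1 CPM (log2 0.97, SE 0.11).

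Of 11 receptors and ligands of the EGF receptor family 5 were called higher and 1 lower, and without sg*FOS* replicate 2 only 2 were called higher. *TGFA* was at 12.7 and 12.2 CPM in sg*FOS* against 8.44, 6.25 and 6.74 CPM in sgScr (log2 0.80, SE 0.13), and *NRG1* at 134 CPM in both against 90.2, 86.4 and 86.5 CPM (log2 0.62, SE 0.042). *HBEGF* rose by 0.79 and was not called without sg*FOS* replicate 2 (adjusted p = 0.086), and *AREG* did not pass (log2 0.04, adjusted p = 0.51). *ERBB3*, a receptor for *NRG1*, was at 8.24 and 8.18 CPM against 14.1, 13.2 and 11.6 CPM (log2 -0.66, SE 0.13). None of these genes apart from *AREG* overlapped between the groups, as was so for 48.5% of all genes tested.

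Some secretory and lipid genes were lower. Of 15 mucins and mucous regulators 5 were called lower and 1 higher, with *MUC5B* at 318 and 348 CPM in sg*FOS* against 501, 467 and 446 CPM in sgScr (log2 -0.50, SE 0.041) and *AGR2*, a mucin chaperone, at 157 and 147 CPM against 216, 221 and 224 CPM (log2 -0.53, SE 0.039). The member called higher, *MUC3A*, was not called without sg*FOS* replicate 2 (log2 0.41, adjusted p = 0.31). The share called among 25 genes of cholesterol synthesis and uptake, 20%, was near the 22.7% of all genes, with 4 called lower, among them *INSIG1* and *IDI1*, an isomerase of the pathway (-0.27), and 1 higher. *CA9*, a carbonic anhydrase induced by hypoxia, was at 0.554 and 0.682 CPM against 2.7 to 3.06 CPM (log2 -2.19, SE 0.33, adjusted p = 3.2e-06). It was the largest of 10 decreases among 36 genes of glycolysis and the hypoxia response, of which 4 were called higher. Without sg*FOS* replicate 2 the numbers were 5 lower and 2 higher, and no member was called higher without sg*FOS* replicate 1 or with the GC correction.

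Stress and metabolic lists were mixed, beside 12.2% of all genes tested called higher and 10.5% lower. Of 41 genes of the unfolded protein and ATF4 response 16 were called lower and 7 higher, with a median of -0.05, and without sg*FOS* replicate 2 the numbers were 8 and 4. *ASNS*, asparagine synthetase, was at 83.1 and 85.0 CPM in sg*FOS* against 107, 112 and 109 CPM in sgScr (log2 -0.38, SE 0.044), while *SESN2*, which restrains mTORC1 and is induced by ATF4, was at 19.9 and 19.3 CPM against 11.1 to 12 CPM (log2 0.76, SE 0.10). Of 19 genes of fatty acid synthesis 8 were called lower (5 without sg*FOS* replicate 2) and 2 higher (0 without sg*FOS* replicate 1), with the desaturase gene *SCD* at 664 and 658 CPM against 837, 836 and 840.1 CPM (log2 -0.34, SE 0.033). Of 37 NRF2 targets 13 were called lower (7 without sg*FOS* replicate 2) and 6 higher, the former including *AKR1C2* (-0.25), which was not called with a replicate block and GC correction together. Of 24 heat shock genes 5 were called lower and 3 higher, with 3 lower without sgScr replicate 2 or with DESeq2. With a replicate block and GC correction together, 0 heat shock genes were called lower. Of 25 lung and endoderm transcription factors 5 were called lower and 2 higher, a share of 28.0% called, near the 22.7% of all genes. With the length and GC correction 7 were called lower and 3 higher, and the median of this list went from -0.07 to -0.15. Of 29 genes of the BCL2 family and caspases 11 were called higher (7 without sg*FOS* replicate 1), among them the survival gene *BCL2A1* at 4.29 and 4.57 CPM against 2.04, 2.38 and 2.17 CPM (log2 1.01, SE 0.22). The member called lower, *BCL2*, was at under 3 CPM in every library and was not called without sg*FOS* replicate 1 (adjusted p = 0.24), without sg*FOS* replicate 2 (adjusted p = 0.066) or without sgScr replicate 2 (adjusted p = 0.15).

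Housekeeping lists moved little. The medians were -0.02 for 76 cytosolic ribosomal protein genes, with 4 called higher and 5 lower, 0.0020 for 58 respiratory chain subunits, with 2 called in each direction, and -0.04 for 31 proteasome subunits, with 5 called lower (none without sg*FOS* replicate 2, and 1 with a replicate block). These small counts moved by over 1.5 times with single libraries left out. Their shares called, 11.8%, 6.90% and 16.1%, were below the 22.7% of all genes, and 24.5% of 49 genes of ribosome biogenesis and the MYC network were called, 6 in each direction.

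**Figure D4:**
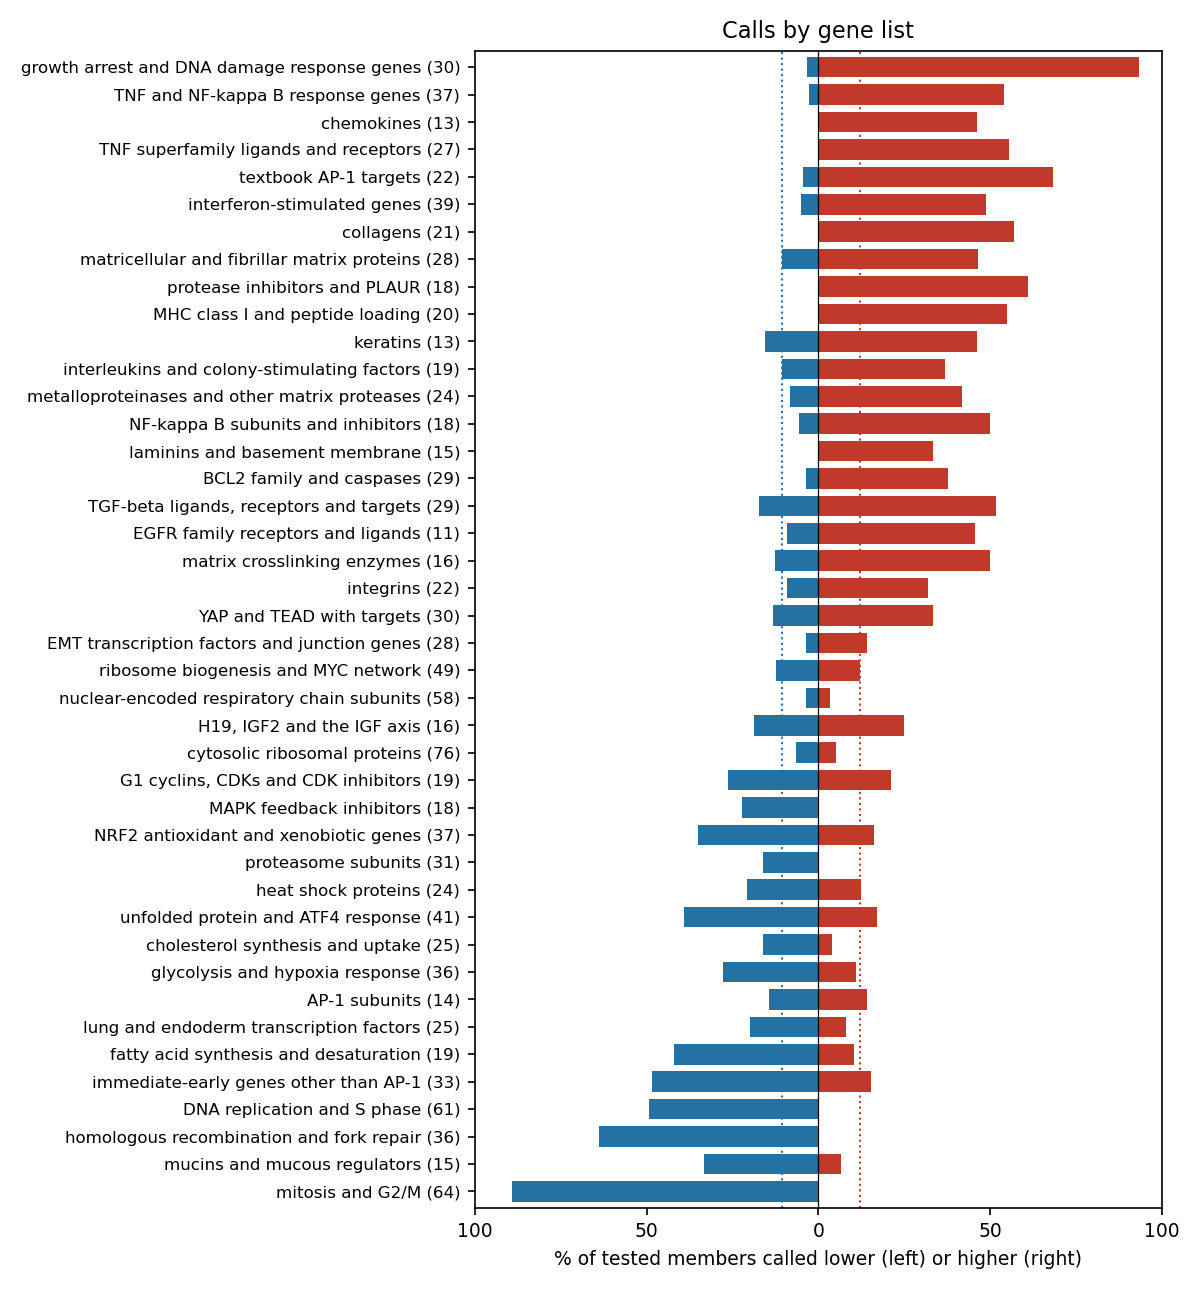
Share of the tested members of each gene list with at least 10 members tested that was called higher (red, right) or lower (blue, left) in sg*FOS*, in percent, ordered by the median log2 fold change, with the number tested in brackets and dotted lines at the shares of all genes tested (12.2% higher, 10.5% lower). The growth arrest and DNA damage response genes stand at the top and the mitosis genes at the bottom.

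Markers of other cell types stayed low. All 8 epithelial markers were tested, and their CPM summed to between 7036 and 7484 in sgScr and to 8310.1 and 8548 in sg*FOS*, with *KRT19* higher by 0.86. Of 10 fibroblast and smooth muscle markers 4 were tested, and 3 of those were called higher, including *ACTA2* (log2 0.96), which overlaps *FAS*. Their CPM summed to between 18.6 and 19.9 in sgScr and to 27.6 and 27.8 in sg*FOS*, with *DCN* and *FAP* at 0 counts in all 5 libraries. Of 10 immune markers 3 were tested, with *CD68* called higher (0.65), and the sum was between 41.8 and 44.5 in sgScr and 60.1 and 62.1 in sg*FOS*, while *PTPRC*, *CD3D*, *CD3E* and *MS4A1* were at 0 counts in all 5 libraries. None of the 7 endothelial markers passed the expression filter. The part of these markers in the results was not tested.

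The position of genes relative to *FOS* was also examined, since the nuclease cut there. On chromosome 14, the 151 tested genes that follow *FOS* towards the end of the chromosome had a median log2 fold change of -0.10, a level 6.42% lower, with 8 called higher and 43 lower (28.5% lower, against 10.5% of all genes). The 305 genes before *FOS* had a median of -0.04, with 32 called higher and 42 lower (13.8%). Relative to the sgScr mean, the median of the genes after *FOS* was -0.08 and -0.10 in the sg*FOS* libraries and between -0.0080 and 0.0060 in the sgScr libraries. With the length and GC correction the median after *FOS* was -0.11, with 5 called higher and 42 lower, and that before *FOS* was -0.03. The 24 genes within 1 Mb of *FOS* had a median of 0.01. Over 23 chromosomes the median ranged from -0.07, on chromosome 13, to 0.05, on chromosome 19, and chromosome 14 had the largest share called lower, 18.8%, and with the correction 16.2%. This pattern along the chromosome was not tested, and it was not limited to genes after *FOS*. The 3 bins from 48 to 24 Mb before *FOS* had medians of -0.08, -0.10 and -0.10, and of -0.05, -0.08 and -0.06 with the correction.

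**Figure D5:**
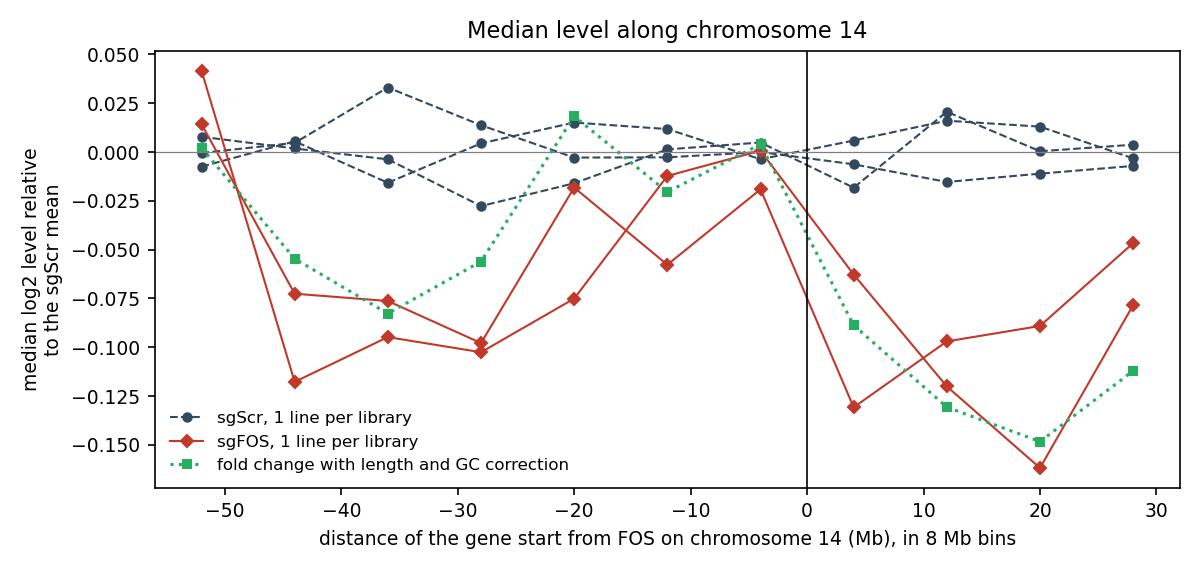
Median log2 level of the tested genes in 8 Mb bins along chromosome 14, against the distance of the gene start from *FOS* in Mb, relative to the sgScr mean, with 1 line per library (sg*FOS* red, sgScr dark) and the fold change with length and GC correction in green. Bins with fewer than 15 genes are left out. Both sg*FOS* libraries lie below all sgScr libraries in each of the 4 bins after *FOS* and also in each bin from 48 to 8 Mb before it.

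Beside these results, *LA* cells had been compared with control A549 cells in 4 other libraries, where 1380 of 14425 genes (9.57%) were called higher and 1434 (9.94%) lower. In that comparison *FOS* was higher by 4.41 on the log2 scale (adjusted p = 2.0e-05), *FOSB* by 7.10, *EGR1* by 4.61 and *FOSL2* by 2.29. Of the 33 immediate-early genes, 15 were called higher and 1 lower in *LA* cells, and 16 were called lower and 5 higher in sg*FOS*. The genes with larger increases in sg*FOS* did not mirror this. Of 398 of them tested in both, 93 (23.4%) were called higher and 18 (4.52%) lower in *LA* cells, where 9.46% and 10.2% of all genes tested in both were. These 93 genes are 7.08% of the genes called higher in *LA* cells among those tested in both. With the length and GC correction of *LA* against control the shares were 20% and 2.31%, against 5.39% and 8.05%. Of 162 genes with larger decreases in sg*FOS*, 17 were called higher and 15 lower in *LA* cells. *COL5A1* was higher in both, by 1.87 in *LA* and 1.12 in sg*FOS*, as was *FBN1* (2.76 and 0.91), whereas *MMP7* was lower by 2.26 in *LA* and higher by 0.89 in sg*FOS*. The *LA* and control replicates were further apart than those used here, with a biological coefficient of variation of 0.329.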

How the data were processed

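The table that the authors deposited holds whole-number counts, not normalized, for 26364 gene names. The submitters' processing notes name STAR 2.7.10b, DESeq2 1.26.0 and hg19. The methods state stranded mRNA libraries and 150-bp paired-end reads. The counting program, annotation and strand setting are not given in the sources used here.

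Groups came from the sample labels. Genes that passed filterByExpr were tested with edgeR 4.0.16 in R 4.3.3, with TMM normalization, the two-sided quasi-likelihood test on the 5 libraries and Benjamini-Hochberg adjustment over all genes tested. Procedures were tested on simulated counts. The 42 gene lists and 4 marker lists were written from general knowledge, and the members, lists and rules were chosen with earlier results of these data known. Named genes were *FOS*, the AP-1 subunits, the 12 largest called changes per direction (mean of 50 counts or more, groups apart), up to 4 called members of each list per direction with the largest changes, and other list members given with their values. Names that look like dates (28) are not named, and some list members counted here are not reported singly. Lists are described by counts and medians, without a set test. Alternatives were DESeq2 1.42.0, other normalizations and filters, all 9 libraries, a replicate block, a loess correction (span 0.5) for transcript length and GC content, thinning, a minimum change of 0.2 (glmTreat), and leaving out each library. Gene positions and lengths came from GENCODE on GRCh37, promoters from RefSeq on GRCh38.p14. The qPCR, imaging, animal and clinical data were not analysed here.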

Additional observations from a re-analysis of the deposited data

How the results depend on the processing

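The FOS log2 fold change kept its direction in every alternative, lay between -1.54 and -1.43 as each library was left out, and lost its call with all 9 libraries alone (-1.49, adjusted p = 0.9999). In that fit 0 genes were called higher or lower, with or without the limit on size, and 0 members were called in each of 14 lists (growth arrest, mitosis, replication, recombination repair, AP-1 targets, immediate-early, TNF response, TNF superfamily, interferon, MHC class I, collagen, matricellular, protease inhibitor and TGF-beta genes), against 444 genes at an unadjusted p under 0.05. DESeq2 called 1077 genes higher and 879 lower, 93 of them lower with a larger change, and 11 interferon-stimulated genes higher. Against a minimum change of 0.2 on the log2 scale, edgeR called 462 genes higher and 223 lower, 94 of them lower with a larger change. In that test the numbers lower were 24 for mitosis, 2 for replication, 4 for recombination repair and 7 for immediate-early genes. The numbers higher were 9 for the TNF superfamily, 12 for interferon-stimulated genes, 3 for MHC class I, 6 for matricellular genes, 5 for protease inhibitors and 5 for TGF-beta. A minimum mean of 50 counts left 11 interferon-stimulated genes higher. With each library left out in turn, 1022 to 1843 genes were called higher and 894 to 1675 lower. The genes called higher with a larger change numbered 311 to 417, and the genes called lower with a larger change 103 to 237. Both lowest totals, 1022 and 894, and the 103 larger decreases came without sg*FOS* replicate 1, and without sg*FOS* replicate 2 there were 1136 genes higher and 914 lower. Over the same fits, 16 to 31 replication genes were called lower and 11 to 18 interferon-stimulated genes higher. With 1 sg*FOS* library left, it is assumed to vary like the sgScr libraries. *UQCRC2*, called lower, was at 0.00025 with the replicate block and length and GC correction together. The replicate numbers of the 2 groups are not tied by the labels, and the same-numbered pairs had correlations of -0.18 and 0.04 in their deviations from the group means. The deviations of the 2 sg*FOS* libraries mirror each other, so that these values cannot decide whether samples were paired. With a replicate block, 1670 genes were called higher and 1480 lower, and none of the counts in the reported direction for these 14 lists moved by over 1.5 times, while proteasome subunits called lower went from 5 to 1 and respiratory chain subunits called higher from 2 to 4. No gene called in the reported fit was called in the opposite direction in any alternative. Depth limits what can be said of genes under about 1 CPM, such as *OASL* and *CA9*.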

Other observations

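The genes of the 3 fibrinogen chains lie side by side on chromosome 4 and were lower together in sg*FOS*. *FGB* was named by its rank, and the other two genes were chosen after their values were seen. *FGA* was at 98.4 and 97.3 CPM in sg*FOS* against 143, 139 and 144 CPM in sgScr (log2 -0.54, SE 0.041, adjusted p = 6.3e-13, edgeR's quasi-likelihood test). *FGG* was at 45.0 and 46.1 CPM against 71.1, 81.2 and 78.9 CPM (log2 -0.76, SE 0.058, adjusted p = 5.9e-13). In *LA* against control cells *FGB* was higher by 1.83 (adjusted p = 0.030) and *FGG* lower (log2 -1.82, adjusted p = 0.035), while *FGA* did not pass (log2 0.53, adjusted p = 0.42).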
